A study of Mus musculus with 24 samples.

Results

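Translation efficiency (TE), the number of ribosome footprints on a coding sequence relative to the amount of its mRNA, was followed in eIF4E3 knockout (KO) cells after Torin1 treatment. The samples were the 12 KO libraries of the 24 in the series, chosen by their labels alone. They comprised 3 RNA-seq and 3 Ribo-seq libraries of vehicle-treated cells and as many of Torin1-treated cells. A TE value was tested for 10535 transcripts of 10524 gene symbols that passed a minimum level in both assays, and 11 symbols had 2 transcripts. The cells were N2a (Neuro-2a), a mouse neuroblastoma line. The KO cells were transfected with CRISPR-Cas9 vectors carrying guides against Eif4e3, and the control (ctrl) cells with the empty vector. The study's methods describe rounds of transfection and puromycin selection and no cloning step, so the KO cells are a selected pool rather than 1 clone. Both were given 250 nM Torin1 dissolved in DMSO, or DMSO alone, for 2 h, and each replicate was a different passage. All 4 KO groups carried the Eif4e3 guides, so the comparison of Torin1 with DMSO in KO cells measures the drug and not the knockout.

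Torin1 blocks the kinase mTOR in both of its complexes. When mTORC1 is active it phosphorylates the 4E-binding proteins (4EBPs). Blocked, it leaves them free to bind the cap-binding protein eIF4E1 and keep it out of eIF4F, the complex that recruits ribosomes to capped mRNAs. The mRNAs most dependent on mTORC1 carry a 5′ terminal oligopyrimidine (TOP) tract, a cytidine at the cap followed by a run of pyrimidines, and code chiefly for ribosomal proteins and elongation factors. LARP1 binds these tracts when mTORC1 is off. eIF4E3 is a further cap-binding member of the eIF4E family.

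The 5′ ends of the transcripts at both ends of the TE response are shown because the TOP tract lies there. The first 20 bases of the annotated transcripts are given 5′ to 3′ (GENCODE annotation and sequence of mouse build GRCm38). Capitals mark a pyrimidine run that starts with C at the first base. The first 6 are members of the ribosomal protein and TOP lists with such a run, which 11 members had. They are the 4 with the lowest and the 2 with the highest TE change once any on an excluded chromosome were left out. They were chosen after their values were seen. Their order is that of the TE change, from -3.11 for Pabpc1 to -1.98 for Rack1 on the log2 scale.
Pabpc1 (chr15:36608954-36608973, minus strand): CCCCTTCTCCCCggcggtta
Eif3f (chr7:108934417-108934436, plus strand): CTCTTTCTCggcaagatggc
Rpl36 (chr17:56613416-56613435, plus strand): CTTCCTgtcccggccgccat
Rpl32 (chr6:115808728-115808747, minus strand): CTTCCTTCTTCCTCggcgct
Rpl4 (chr9:64173375-64173394, plus strand): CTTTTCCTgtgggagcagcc
Rack1 (chr11:48800360-48800379, plus strand): CTTTTTCTCCacagggtcgt

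Eef2, among the 10 largest decreases, has an annotated start with no such run, as do 5 transcripts whose TE rose. An annotated start is not a measured cap site, so these letters say nothing of the start used in N2a cells.
Eef2 (chr10:81176631-81176650, plus strand): gttgacgtcagcggtctctt
Chac1 (chr2:119351229-119351248, plus strand): gaggcagtctgagggccttc
Atf3 (chr1:191218020-191218039, minus strand): aacagctgttagttgctttg
Dync1h1 (chr12:110601452-110601471, plus strand): agccggctccgctgtccgca
Sesn2 (chr4:132510482-132510501, minus strand): gcagcgggctgacagagccg
Sh3bp5l (chr11:58330724-58330743, plus strand): ggttggacggtcttgttgcg

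The KO RNA-seq libraries held 17953074 to 28912958 counts on coding sequences. The KO Ribo-seq libraries held 2715662, 5288846 and 3150521 counts under DMSO and 2133128, 1937717 and 1615954 under Torin1. Every Torin1 footprint library was thus shallower than every DMSO one, and the part of depth in the TE calls was not tested. Pearson correlations of log levels within a condition ran from 0.989 to 0.996 for mRNA and from 0.976 to 0.986 for footprints. Between conditions they ran from 0.981 to 0.99 and from 0.923 to 0.939. Of 15 neuroblastoma marker transcripts, 12 reached 1 CPM (count scaled to the library total) in all 6 KO RNA-seq libraries, against 1 of 5 fibroblast, 1 of 4 immune and 0 of 3 astrocyte markers. Eif4e3 mRNA lay between 2.84 and 5.11 CPM in the KO libraries and between 11.1 and 18.1 CPM in the ctrl libraries, so it was lower in the KO cells but not at 0. The paper reports that the protein was undetectable by western blot in KO cells, so the remaining mRNA is not a measure of protein. In bulk samples, fewer expressing cells and less RNA per cell cannot be told apart. Footprints of Eif4e3 in the KO libraries were only 4 to 18 counts, and its TE change of 0.096 ± 0.48 (adjusted p = 0.906) was not called.

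The change in TE on Torin1 was tested as the interaction of assay and treatment over the 12 libraries (edgeR quasi-likelihood test, Benjamini-Hochberg adjustment over all transcripts tested, threshold 0.05). Levels below are CPM scaled within each assay by trimmed mean of M-values (TMM), in the order of replicates 1 to 3. Changes are log2 Torin1 over DMSO with the standard error (SE) of the fit after ±, with n = 3 libraries per condition and assay. Because each assay was scaled to its own total, a TE change is relative to the other transcripts, and a change shared by all of them would not be seen.

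Torin1 changed TE in both directions in KO cells, and the decreases were the larger. TE fell for 1871 transcripts (17.8% of those tested) and rose for 1119 (10.6%), 2990 in all (28.4%). The decreases had a median of -0.90, and 825 were beyond 1 log2 unit and 179 beyond 2. The increases had a median of 0.64, with 103 beyond 1 log2 unit and 6 beyond 2. In the 3 TE values per condition, taken with replicates matched by number, the conditions did not overlap for 1779 of the transcripts that fell and 1006 of those that rose. Over all transcripts tested, 22.5% lay wholly lower and 16.2% wholly higher under Torin1. The shares of 17.8% and 10.6% are the background for the counts of gene lists given below. The balance between the directions depended on the scaling: with library totals alone, which moved the median of all transcripts by 0.25, there were 1192 decreases and 2700 increases. Leaving out both libraries of Torin1 replicate 1, 2 or 3 left 649, 636 and 719 increases.

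The TE response was carried mostly by footprints. Footprint levels alone were called for 4390 of 10822 transcripts (40.6%), 2391 lower (22.1%) and 1999 higher (18.5%). Levels of mRNA were called for 1097 of 11004 (9.97%), 411 lower (3.74%) and 686 higher (6.23%), or for 1797 with the replicate number as a block. Without RNA-seq replicate 1 of the DMSO group, or replicate 1, 2 or 3 of the Torin1 group, the mRNA calls were 550, 579, 438 and 502. Of the transcripts whose TE fell, 1559 (83.3%) had lower footprints with no called mRNA change, and of those whose TE rose, 880 (78.6%) had higher footprints with none. These classes share libraries with the TE test and describe it.

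**Figure D1:**
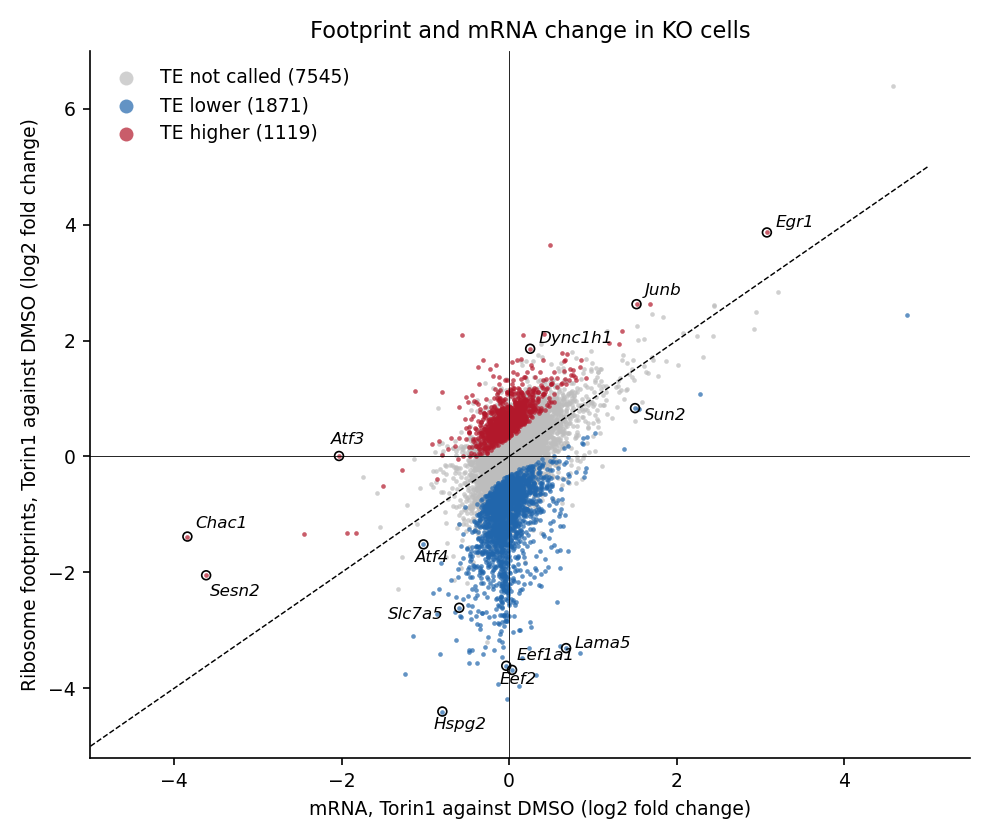
Log2 change in footprints (vertical) against log2 change in mRNA (horizontal), Torin1 over DMSO, for the 10535 transcripts tested in KO cells, coloured by the TE call; 2 points lie outside the axes. The 1871 decreases form a cloud below the diagonal that spreads far more along the footprint axis than along the mRNA axis, and the 1119 increases a narrower band above it.

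Ribosomal proteins and elongation factors gave the most uniform decrease of the 21 gene lists. Of the 79 ribosomal protein transcripts, 78 fell in TE, with a median of -2.04, and all 79 fell in footprints, while none was called in mRNA. All 23 other TOP transcripts, which code for elongation factors, eIF3 subunits, poly(A)-binding proteins and a few further proteins, fell in TE, with a median of -1.55. The median over all transcripts was -0.0095. Together these 102 transcripts took 11.7, 11.4 and 11.2% of all footprint counts in the DMSO libraries and 3.62, 3.66 and 3.41% in the Torin1 libraries. Every Torin1 library was below every DMSO library, a difference of -7.9 percentage points (exact two-sided permutation test, p = 0.1, the smallest that 3 libraries against 3 allow). These transcripts were all called lower in footprints from the same libraries, so the separation was settled beforehand and gives no further support. Their share of mRNA counts was 10.6, 11.7 and 10.4% under DMSO and 11.1, 10.5 and 10.5% under Torin1, with the conditions overlapping (exact permutation p = 0.8).

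Eef2, the translocase of the elongating ribosome (ENSMUST00000047864, chromosome 10, 81176631 to 81182498 on the plus strand, 5′ transcript leader of 96 nt), had the largest decrease among the TOP mRNAs. Its footprint levels were 2595, 2789 and 3178 CPM under DMSO and 210.5, 239 and 217 CPM under Torin1, so the lowest DMSO library was more than 10 times the highest Torin1 library. Its mRNA levels were 7533, 8201 and 6962 CPM under DMSO and 8063, 7691 and 7489.6 CPM under Torin1, and its TE changed by -3.72 ± 0.13 (adjusted p = 5.82e-16). Eef1a1, which delivers aminoacyl-tRNA to the ribosome (ENSMUST00000042235, chromosome 9, 78478449 to 78481724 on the minus strand), had footprint levels of 9781, 11644 and 13357 CPM under DMSO and 1028, 949.8 and 867 CPM under Torin1 and a TE change of -3.58 ± 0.14 (adjusted p = 3.53e-15). Its mRNA change was -0.034. Footprints of Pabpc1, the main cytoplasmic poly(A)-binding protein, were at 346, 417 and 435 CPM under DMSO and 39.7, 58.5 and 53.2 CPM under Torin1, and its TE changed by -3.11 ± 0.15 (adjusted p = 9.97e-14). The footprint groups did not overlap for any of these 3. Tpt1, the translationally controlled tumour protein whose mRNA is a classical TOP mRNA, changed by -2.33 ± 0.12 (adjusted p = 2.79e-13), and Naca, a subunit of the nascent polypeptide-associated complex and the least changed member of its list, by -0.72 ± 0.12 (adjusted p = 8.81e-05).

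Among ribosomal proteins, the large-subunit protein Rpl27a had footprint levels of 1114, 989 and 1013 CPM under DMSO and 83.8, 94.5 and 105 CPM under Torin1 and changed by -3.38 ± 0.15 (adjusted p = 2.096e-14) in TE. Rpl32, another large-subunit protein, changed by -2.77 ± 0.13 (adjusted p = 2.77e-14) and Rplp0, a protein of the ribosomal stalk, by -2.81 ± 0.13 (adjusted p = 3.27e-14). Rpl21, at -0.44 ± 0.29 (adjusted p = 0.276), was the one member not called. Ribosomal protein genes have many near-identical copies in the genome, so reads may have been split among them, and single values in this family are uncertain. Rpl22l1, a ribosomal protein paralogue outside the list, changed by -2.41 ± 0.21 (adjusted p = 1.53e-09) in TE although its mRNA rose by 0.43.

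**Figure D2:**
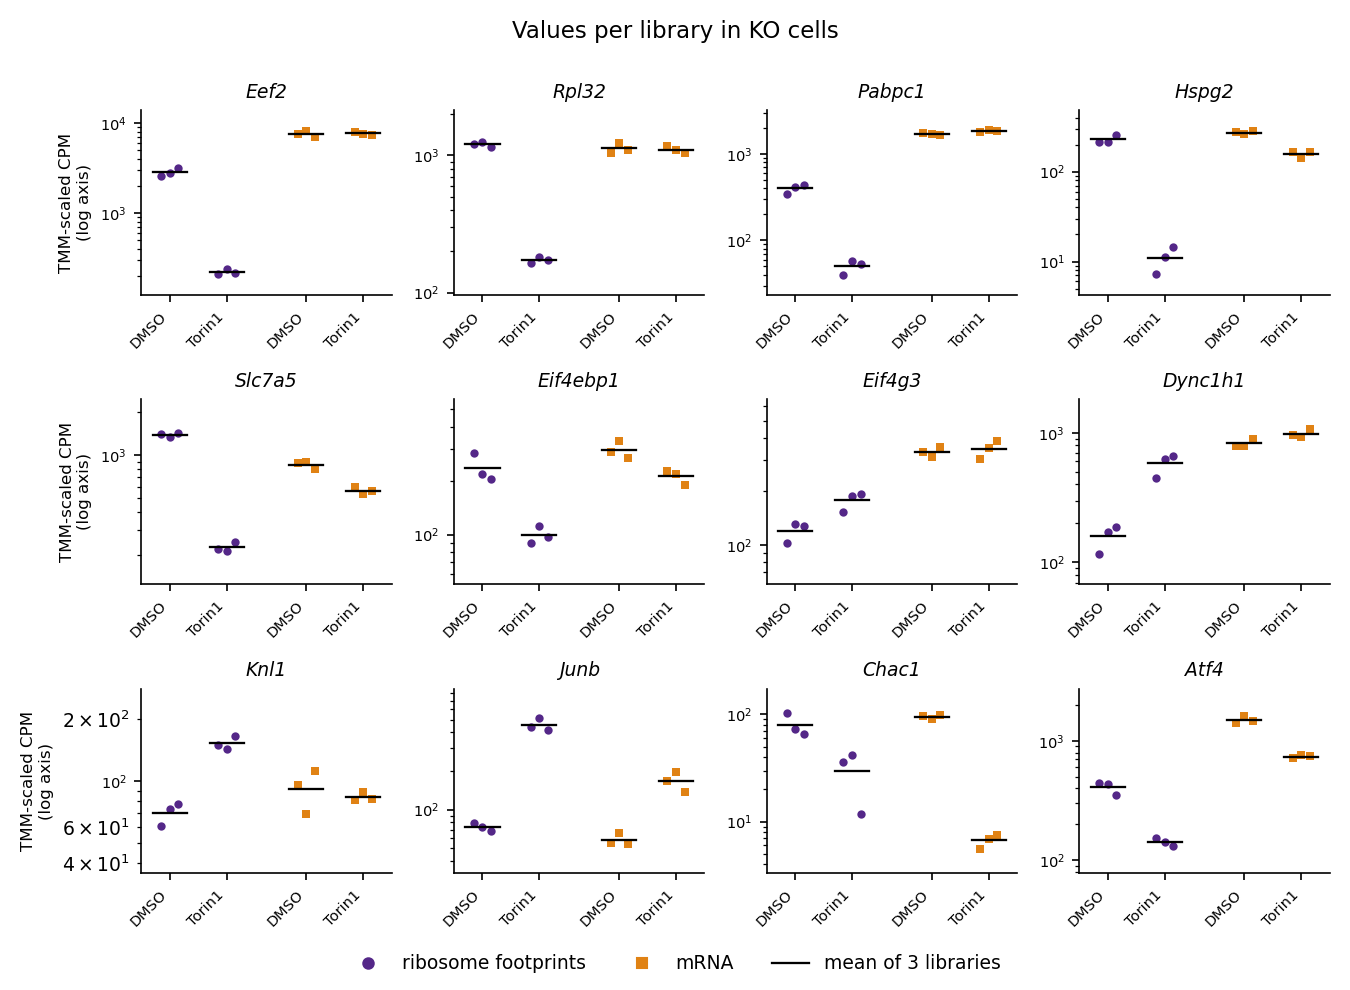
Scaled footprint and mRNA levels in CPM (log axis) of 12 transcripts in each of the 6 KO Ribo-seq and 6 KO RNA-seq libraries. Points are libraries and bars the mean of 3. Eef2, Rpl32 and Pabpc1 drop in footprints with little movement in mRNA, Hspg2, Slc7a5 and Atf4 drop in both, Chac1 drops further in mRNA than in footprints, and Junb rises in both.

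Initiation factors were called in both directions. Of 19 tested components and regulators of eIF4F, 4 fell and 4 rose (21.1% each, beside 17.8% and 10.6% of all transcripts tested). Their median was -0.13, which turned to 0.12 with library totals alone and to 0.018 without DMSO Ribo-seq replicate 1, and was -0.23 without Torin1 Ribo-seq replicate 1. With library totals alone, 4 fell and 7 rose. Mknk2, a kinase that phosphorylates eIF4E1, changed by -2.08 ± 0.28 (adjusted p = 3.18e-06), and Eif4a2, a helicase subunit of eIF4F, by -1.58 ± 0.14 (adjusted p = 1.22e-09). Eif4ebp1, the 4EBP best known as an mTORC1 substrate, had footprint levels of 286, 219 and 204 CPM under DMSO and 89.7, 111 and 97.01 CPM under Torin1 and a TE change of -0.76 ± 0.17 (adjusted p = 0.00143), without overlap of the footprint levels. For Eif4ebp2, the value was -0.62 ± 0.34 (adjusted p = 0.179), and for Eif4e, which codes for eIF4E1, 0.27 ± 0.14 (adjusted p = 0.153).

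The scaffold proteins of eIF4F had higher TE. Eif4g3 had footprint levels of 102, 130.3 and 128 CPM under DMSO and 154, 189 and 193 CPM under Torin1 and a TE change of 0.50 ± 0.16 (adjusted p = 0.017), and Eif4g1 changed by 0.42 ± 0.14 (adjusted p = 0.0316). The call of Eif4g3 was lost without DMSO RNA-seq replicate 3, Torin1 RNA-seq replicate 1 or Torin1 Ribo-seq replicate 2 or 3. That of Eif4g1 was kept only without DMSO RNA-seq replicate 2, Torin1 RNA-seq replicate 3, DMSO Ribo-seq replicate 2 or 3 or Torin1 Ribo-seq replicate 1. Larp4b, an RNA-binding protein of the La-related family, rose by 0.72 ± 0.18 (adjusted p = 0.00346), and Eif4enif1, the eIF4E transporter, by 0.72 ± 0.13 (adjusted p = 2.19e-04). Of 31 other initiation factors outside the TOP list, 7 fell and 7 rose (22.6% each), with a median of -0.11. With library totals alone the median was 0.14, and 4 fell and 9 rose. Eif3i, an eIF3 subunit, was the lowest at -1.86 ± 0.14 (adjusted p = 1.95e-10), and Eif1a, a factor of start codon scanning, the highest at 0.91 ± 0.16 (adjusted p = 9.57e-05).

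Ribosome biogenesis factors, which assemble the ribosomal proteins, were also called in both directions. Of 51, 6 fell (11.8%) and 5 rose (9.8%), and the median was 0.019. Neither share exceeded the 17.8% and 10.6% of all transcripts tested. This balance depended on the scaling, since with library totals alone 3 fell and 21 rose and the median was 0.27. The sign of the median rested on single libraries. It was -0.0075 without DMSO RNA-seq replicate 2 and -0.0020 without Torin1 RNA-seq replicate 2, and between 0.049 and 0.071 without DMSO Ribo-seq replicate 1, 2 or 3 or Torin1 Ribo-seq replicate 2. The extremes were Polr1c, a subunit of RNA polymerases I and III, at -1.52 ± 0.15 (adjusted p = 1.62e-08) and Nop58, a core protein of box C/D snoRNPs, at 0.53 ± 0.12 (adjusted p = 0.00151). Of 19 cytoplasmic aminoacyl-tRNA synthetases, 3 fell and 3 rose (15.8% each), but with library totals alone 3 fell and 10 rose. The number that rose was 1 without Torin1 RNA-seq replicate 2 and 5 without DMSO Ribo-seq replicate 2. Qars, which charges glutamine tRNA, changed by -2.06 ± 0.15 (adjusted p = 8.902e-11), and Lars, which charges leucine tRNA, by 0.59 ± 0.15 (adjusted p = 0.00485).

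Mitochondrial and metabolic lists had more decreases than increases, with medians nearer 0 than those of the TOP mRNAs. Of 83 mitochondrial ribosomal proteins, 31 fell and none rose, with a median of -0.34, although with library totals alone 13 fell and 14 rose. Mrpl30 was the lowest at -1.09 ± 0.14 (adjusted p = 1.29e-06). Of 82 subunits of the respiratory chain and ATP synthase, 40 fell and 2 rose, with a median of -0.39, and with library totals alone 19 fell and 6 rose. Atp5g2, a gene for the c-ring of ATP synthase, had footprint levels of 470.5, 397 and 487 CPM under DMSO and 94.6, 60.9 and 78.9 CPM under Torin1, every Torin1 library below every DMSO library, and changed by -2.52 ± 0.18 (adjusted p = 3.99e-11). Ndufs1, the largest subunit of complex I, went the other way at 0.52 ± 0.12 (adjusted p = 0.00177).

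In glycolysis and the TCA cycle, 16 of 35 transcripts fell and 2 rose, with a median of -0.33, and with library totals alone 11 fell and 5 rose. Gpi1, glucose-6-phosphate isomerase, was the lowest at -1.27 ± 0.13 (adjusted p = 5.17e-08), and the glycolytic enzymes Aldoa (ENSMUST00000106348) and Gapdh were lower too, at -1.08 ± 0.13 (adjusted p = 8.59e-07) and -1.06 ± 0.13 (adjusted p = 1.099e-06). A second Aldoa transcript among the 35, with 3 to 17 footprint counts per library, had -0.49 ± 0.48 (adjusted p = 0.482). Idh1, the cytosolic isocitrate dehydrogenase, rose by 0.44 ± 0.13 (adjusted p = 0.0131), a call lost without Torin1 Ribo-seq replicate 1 or both libraries of DMSO replicate 1. Of 34 transcripts of cholesterol and fatty acid synthesis, 15 fell and 4 rose, or 9 and 7 with library totals alone, and 9 were also lower in mRNA. Scap, the sterol sensor that escorts SREBP, was the lowest at -2.29 ± 0.24 (adjusted p = 6.37e-08), and Srebf2, which codes for SREBP2, had -1.67 ± 0.13 (adjusted p = 3.02e-10). Sqle, squalene epoxidase, rose by 0.48 ± 0.13 (adjusted p = 0.00631), a call lost without both libraries of Torin1 replicate 1. Of 48 proteasome transcripts, 12 fell and 2 rose, with a median of -0.22. With library totals alone 6 fell and 6 rose and the median turned to 0.025, so the excess of decreases in this list depended on the scaling. Without DMSO RNA-seq replicate 2, 21 of them fell. Psmd8, a subunit of the regulatory particle, was the lowest at -0.96 ± 0.15 (adjusted p = 2.06e-05), and Psme3, the nuclear proteasome activator, the highest at 0.48 ± 0.13 (adjusted p = 0.00785), a call also lost without both libraries of Torin1 replicate 1.

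Large decreases were also found in transcripts of secreted matrix proteins. Of 28 extracellular matrix and adhesion transcripts, 15 fell and none rose, with a median of -0.94. With library totals alone 13 fell and 1 rose, and the median was -0.68. Single libraries moved the median as well. It was -0.76 without DMSO RNA-seq replicate 2, -0.71 without DMSO Ribo-seq replicate 2 and -0.80 without Torin1 Ribo-seq replicate 2. Hspg2, the basement membrane proteoglycan perlecan (ENSMUST00000171332, chromosome 4, 137468803 to 137570629 on the plus strand), had footprint levels of 214, 213 and 258 CPM under DMSO and 7.21, 11.2 and 14.6 CPM under Torin1. Its mRNA levels were 273, 262 and 283 CPM under DMSO and 165, 142 and 164 CPM under Torin1, a smaller drop without overlap, and its TE changed by -3.61 ± 0.20 (adjusted p = 6.68e-13). Lama5, a laminin chain (chromosome 2, 180176373 to 180225859 on the minus strand), had footprint levels of 32.2, 28.9 and 29.98 CPM under DMSO and 1.803, 4.38 and 2.92 CPM under Torin1, against mRNA levels of 51.5, 45.1 and 46.02 CPM under DMSO and 77.3, 77.7 and 73.5 CPM under Torin1. Footprints of Lama5 thus fell while its mRNA rose, and its TE changed by -4.000 ± 0.27 (adjusted p = 1.19e-11). The Torin1 footprint levels of Lama5 rest on few counts at the depth of these libraries, so the size of this change is uncertain.

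Agrn, the proteoglycan agrin, changed by -3.18 ± 0.17 (adjusted p = 2.79e-13) and the collagen Col4a1 by -2.44 ± 0.14 (adjusted p = 1.51e-12). In Col4a1 the mRNA change was 0.25 and the footprint change -2.18. Itgb1, the integrin beta 1 subunit, was the highest of the list with 0.13 ± 0.12 (adjusted p = 0.46) and was not called. The annotated 5′ leaders of Hspg2, Lama5 and Agrn are 59, 57 and 68 nt long, and none is in the TOP list. These 3 are not typical of the list, whose median leader was 211.5 nt, against 173 nt for all transcripts tested.

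Lysosomal transcripts fell in 23 of 41 cases and rose in 3, with a median of -0.52, or in 17 and 6 with library totals alone. The 3 that rose, Atp6v1c1, Atp6v1e1 and Atp6v1h, all code for cytosolic V1 subunits of the V-ATPase proton pump, with values of 0.34, 0.60 and 0.36. The V1 subunits Atp6v1a, Atp6v1b2, Atp6v1d, Atp6v1f and Atp6v1g1 were not called, with values from 0.030 to 0.13. Atp6v1c1 kept its call only without DMSO RNA-seq replicate 2, DMSO Ribo-seq replicate 1 or 3 or Torin1 Ribo-seq replicate 2. Atp6v1h kept it only without DMSO RNA-seq replicate 1, DMSO Ribo-seq replicate 3 or Torin1 Ribo-seq replicate 1. By contrast, the lysosomal enzyme Naglu changed by -1.98 ± 0.17 (adjusted p = 8.700e-10), the enzyme Hexa by -1.52 ± 0.15 (adjusted p = 1.18e-08) and the membrane protein Lamp1 by -1.21 ± 0.13 (adjusted p = 9.996e-08). Of 38 transcripts of endoplasmic reticulum folding and translocation, 22 fell and 2 rose, with a median of -0.42, and with library totals alone 15 fell and 4 rose. P4hb, a protein disulfide isomerase, was the lowest at -1.79 ± 0.11 (adjusted p = 3.397e-12), and Sec61a1, the channel of the translocon, had -1.45 ± 0.12 (adjusted p = 6.205e-10). The chaperone Hspa5 was the highest of the list at 0.59 ± 0.12 (adjusted p = 6.19e-04). Further transcripts among the 10 largest decreases were Tmem94 at -3.18 ± 0.27 (adjusted p = 8.33e-10) and Abca7, a lipid transporter, at -3.13 ± 0.22 (adjusted p = 3.63e-11).

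**Figure D3:**
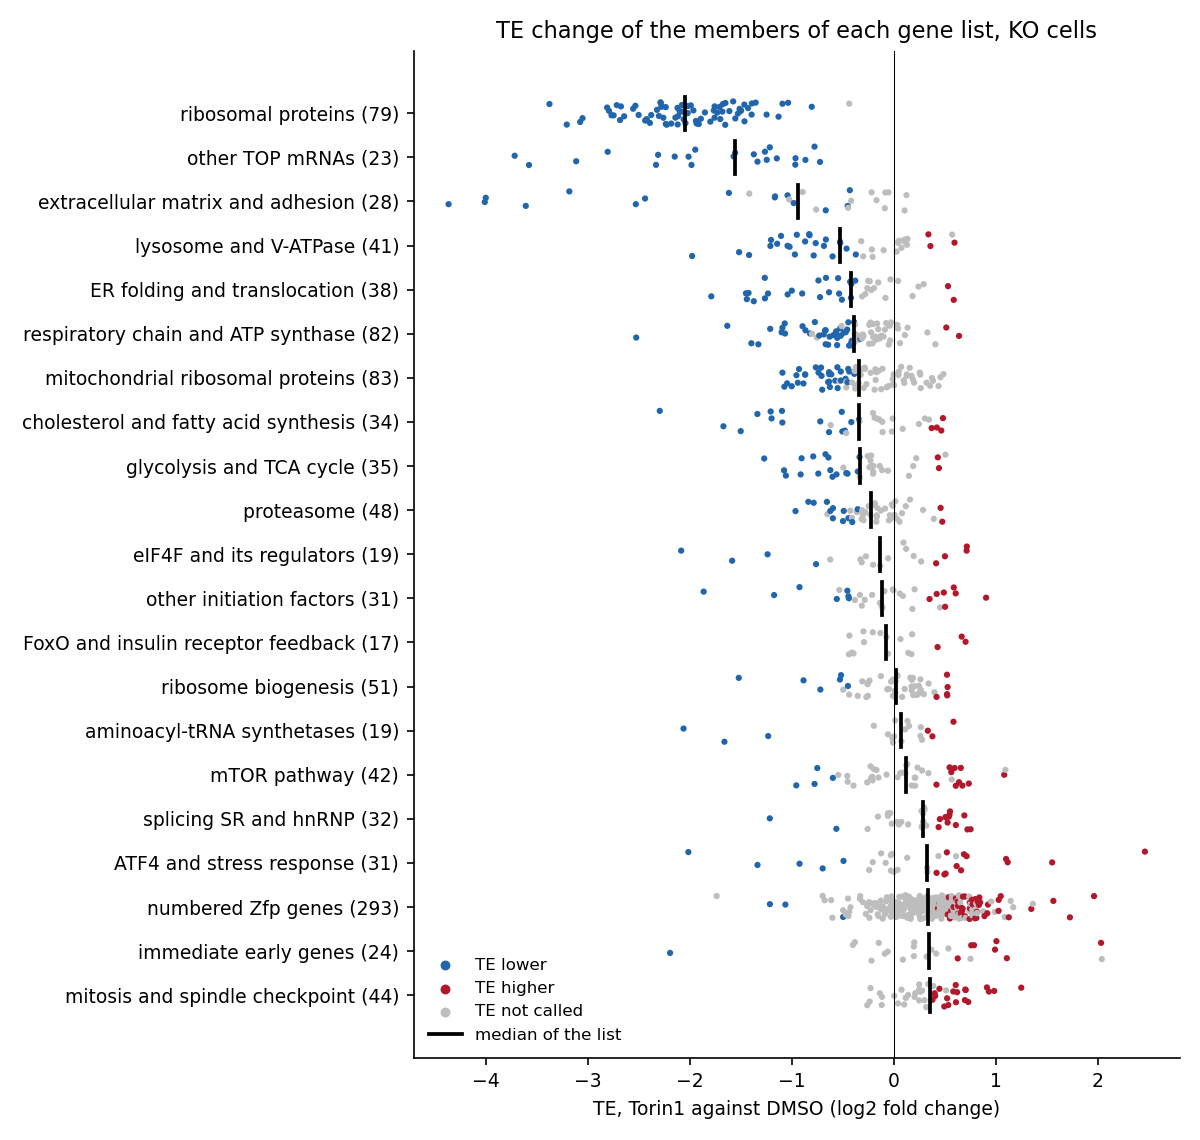
TE change in KO cells (log2 Torin1 over DMSO) of every tested member of the 21 gene lists, 1 point per transcript, coloured by its call, with a bar at the median of each list and a line at 0. Ribosomal proteins, with a median of -2.04, and other TOP mRNAs, with -1.55, have the lowest medians, while the medians of mitosis, splicing and numbered Zfp genes lie to the right of 0.

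Transcripts of cell division were called on the increasing side alone. Of 44 mitosis and spindle checkpoint transcripts, 19 rose and none fell, with a median of 0.36, and with library totals alone 32 rose and none fell. Knl1, a scaffold of the kinetochore, had footprint levels of 60.6, 73.2 and 77.5 CPM under DMSO and 151, 144 and 166 CPM under Torin1 against mRNA levels of 95.5, 69.4 and 112 CPM under DMSO and 81.3, 88.7 and 82.3 CPM under Torin1. Its footprints under Torin1 were above all DMSO values, and its TE changed by 1.25 ± 0.19 (adjusted p = 1.48e-05). Cdca8 (borealin, of the chromosomal passenger complex) had 0.99 ± 0.15 (adjusted p = 1.28e-05), with mRNA lower by a log2 change of -0.37, and the checkpoint kinase Bub1b 0.73 ± 0.13 (adjusted p = 1.13e-04). Sgo1 (shugoshin, which protects centromeric cohesion), outside the list, had 1.26 ± 0.18 (adjusted p = 8.59e-06).

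Dync1h1, the heavy chain of cytoplasmic dynein (ENSMUST00000018851, chromosome 12, 110601452 to 110666945 on the plus strand, coding sequence of 13935 nt), was among the 10 largest increases. Its footprint levels were 115, 172 and 188 CPM under DMSO and 449, 626 and 662 CPM under Torin1 and its mRNA levels 792, 794 and 894 CPM under DMSO and 963, 927 and 1061 CPM under Torin1. Neither measure overlapped between the conditions, but the mRNA change of 0.25 was not called, and the TE change was 1.61 ± 0.19 (adjusted p = 3.11e-07). Pafah1b1 (LIS1, a regulator of dynein) changed by 0.84 ± 0.12 (adjusted p = 4.52e-06), and the histone chaperone Anp32e by 1.105 ± 0.14 (adjusted p = 9.999e-07). Others of the 10 largest increases were Fam43a at 1.38 ± 0.25 (adjusted p = 1.39e-04), Zfand2a at 1.28 ± 0.31 (adjusted p = 0.00325), Prdm4 at 1.22 ± 0.22 (adjusted p = 1.83e-04) and the gene model Gm43552 at 1.75 ± 0.41 (adjusted p = 0.00209).

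Of 32 SR and hnRNP splicing factors, 11 rose and 2 fell, with a median of 0.29, and with library totals alone 22 rose and 2 fell. Hnrnpab rose by 0.75 ± 0.12 (adjusted p = 3.61e-05), Hnrnpa2b1 by 0.72 ± 0.13 (adjusted p = 1.48e-04) and Srsf5 by 0.69 ± 0.14 (adjusted p = 6.005e-04). The 2 that fell were Hnrnpa1, which is also a TOP mRNA, at -1.21 ± 0.11 (adjusted p = 3.83e-09), and Hnrnpdl at -0.56 ± 0.13 (adjusted p = 0.00147). Of 293 numbered Zfp genes, a family of zinc finger proteins, 42 rose (14.3%) and 3 fell (1.02%), with a median of 0.33. The shares over all transcripts tested were 10.6% and 17.8%, so the share that rose was not far above that of all transcripts. Without DMSO RNA-seq replicate 1 or Torin1 Ribo-seq replicate 2, 27 of them rose, and with library totals alone 88 rose and none fell. Zfp869 changed by 0.82 ± 0.16 (adjusted p = 4.47e-04), Zfp706 by 0.84 ± 0.17 (adjusted p = 5.51e-04) and Zfp68 by 0.70 ± 0.16 (adjusted p = 0.00137). Levels of mRNA were higher for 39 of the 293 and footprints for 102, beside 6.23% and 18.5% of all transcripts tested in each assay.

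The transcripts of the mTOR pathway itself were tested for 42 genes, of which 10 rose and 4 fell, and the median was 0.12. With library totals alone 14 rose and 2 fell and the median was 0.37. Single libraries moved the median as well. It was 0.055 without DMSO RNA-seq replicate 3, and 0.043, 0.063 and 0.18 without Torin1 Ribo-seq replicate 1, 2 and 3. Without replicate 1 of the DMSO RNA-seq, Torin1 RNA-seq or Torin1 Ribo-seq libraries, 2 fell. Flcn, a GTPase-activating protein of the Rag pathway, rose by 1.08 ± 0.20 (adjusted p = 1.64e-04), with higher mRNA and footprints. The small GTPase Rheb, the direct activator of mTORC1, rose by 0.61 ± 0.13 (adjusted p = 6.89e-04), and the Rag GTPase Rraga by 0.66 ± 0.16 (adjusted p = 0.00362). Tsc2, whose product turns Rheb off, was the lowest at -0.95 ± 0.20 (adjusted p = 7.85e-04).

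Genes of the insulin and growth factor response differed in the level at which they moved. Of 17 FoxO targets and insulin receptor feedback genes, 9 rose in mRNA while 3 rose and none fell in TE, with a median TE change of -0.071 that turned to 0.18 with library totals alone, 0.030 without DMSO RNA-seq replicate 2 and 0.016 without DMSO Ribo-seq replicate 1. Cdkn1b, the inhibitor p27, had a TE change of 0.70 ± 0.15 (adjusted p = 0.001). Gabarapl1, an autophagy protein of the ATG8 family, had 0.67 ± 0.18 (adjusted p = 0.00832) with an mRNA change of 0.67, a TE call lost without both libraries of Torin1 replicate 3. Of 24 immediate early genes, 18 rose in mRNA, 18 rose in footprints and 7 rose in TE, with 1 lower. Junb, a subunit of AP-1, had mRNA levels of 55.4, 65.5 and 54.4 CPM under DMSO and 168, 197 and 137 CPM under Torin1 and footprint levels of 78.8, 73.7 and 67.8 CPM under DMSO and 434, 510.5 and 416 CPM under Torin1. Both rose without overlap, the footprints further, for a TE change of 1.11 ± 0.17 (adjusted p = 1.73e-05).

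Ier2 had a TE change of 1.01 ± 0.17 (adjusted p = 7.36e-05), Klf6 of 0.99 ± 0.18 (adjusted p = 1.55e-04) and Egr1, a zinc finger factor of the early growth response, of 0.79 ± 0.20 (adjusted p = 0.00385). Egr3 went against them with -2.19 ± 0.80 (adjusted p = 0.0412), its mRNA up by 4.74 and its footprints up by 2.44. It was the one immediate early transcript called lower, and the call was kept only without Torin1 RNA-seq replicate 3, DMSO Ribo-seq replicate 1 or Torin1 Ribo-seq replicate 2. It was also lost with library totals alone and with the replicate block in both forms. Egr3 had a mean of only 2 footprint counts per library under DMSO and 7 under Torin1, so DESeq2 filtered it and gave it no adjusted p, and the minimum of 20 counts removed it.

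In the ATF4 and stress response list, the mRNA calls were all lower, while the TE calls went both ways. Of 31 transcripts, 18 fell in mRNA and none rose. In TE, 12 rose, 5 fell and 14 were not called, with a median of 0.33. That median was 0.16 without DMSO RNA-seq replicate 1, 0.14 without Torin1 RNA-seq replicate 3 and 0.58 with library totals alone. Chac1, a glutathione-degrading enzyme induced by ATF4 (ENSMUST00000028780, chromosome 2, 119351229 to 119354381 on the plus strand), had mRNA levels of 97.7, 90.8 and 98.4 CPM under DMSO and 5.598, 6.87 and 7.58 CPM under Torin1. Its footprint levels were 102, 73.03 and 66.4 CPM under DMSO and 36.1, 41.9 and 11.7 CPM under Torin1. Both fell without overlap, mRNA by more, which left a TE change of 2.46 ± 0.30 (adjusted p = 7.44e-07). Sesn2, an inhibitor of mTORC1 that senses leucine, had mRNA levels of 65.4, 60.3 and 63.4 CPM under DMSO and 5.33, 5.300 and 4.73 CPM under Torin1 and a TE change of 1.55 ± 0.31 (adjusted p = 3.95e-04). Its footprint change was -2.05.

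Trib3, a pseudokinase that restrains ATF4, changed by 1.102 ± 0.19 (adjusted p = 1.201e-04) in TE with an mRNA change of -2.45. For Ddit4, an inhibitor of mTORC1, the corresponding values were 0.62 ± 0.19 (adjusted p = 0.0141) and -1.94. Chac1, Sesn2, Trib3, Ddit4 and Herpud1 were the 5 transcripts of the 10535 whose TE rose while both mRNA and footprints were called lower. The TE call of Ddit4 was lost without Torin1 Ribo-seq replicate 2 or both libraries of Torin1 replicate 3. That of Herpud1 was kept only without DMSO RNA-seq replicate 2, Torin1 RNA-seq replicate 2, DMSO Ribo-seq replicate 3 or Torin1 Ribo-seq replicate 1. Atf3, a stress-induced transcription factor, rose by 2.03 ± 0.38 (adjusted p = 2.29e-04) in TE with an mRNA change of -2.03 and a footprint change of 0.0079 that was not called.

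The members that fell in TE included some genes of amino acid transport and synthesis, but others of that kind did not fall. The transporter Slc38a2 rose by 0.50 (adjusted p = 0.013) and Psph, of serine synthesis, by 0.42 (adjusted p = 0.0105). Psat1, Slc7a3, Slc3a2 and Slc7a11, among others, were not called. Slc7a5, the light chain of the LAT1 transporter, had footprint levels of 1405, 1332 and 1441 CPM under DMSO and 222, 214 and 249 CPM under Torin1 and mRNA levels of 881, 892 and 798 CPM under DMSO and 598, 536 and 567 CPM under Torin1. Both fell without overlap and the footprints by more, for a TE change of -2.01 ± 0.12 (adjusted p = 2.31e-12). Phgdh, the first enzyme of serine synthesis, changed by -0.92 ± 0.12 (adjusted p = 1.88e-06) and Mthfd2, a mitochondrial folate enzyme, by -0.70 ± 0.12 (adjusted p = 7.74e-05). Atf4 itself, whose translation is controlled by upstream reading frames, had footprint levels of 443, 435 and 352 CPM under DMSO and 155, 143 and 131 CPM under Torin1 and mRNA levels of 1428, 1619 and 1474 CPM under DMSO and 721, 756 and 746 CPM under Torin1. Its TE change of -0.49 ± 0.14 (adjusted p = 0.00794) was no longer called with library totals alone. Asns, asparagine synthetase, had a TE change of -0.12 ± 0.14 (adjusted p = 0.541).

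Smaller classes combined mRNA and footprint changes in other ways. TE fell with footprints lower and mRNA higher for 39 transcripts, among them Lama5, Col4a1, Cnnm3 and Eif4a2. For 64 others mRNA rose, footprints were not called and TE fell, as for the zinc exporter Slc30a1, with a TE change of -1.16 ± 0.16 (adjusted p = 4.66e-06) and an mRNA change of 0.90. On the other side, 23 transcripts had higher footprints with lower mRNA, among them Sephs2, a selenophosphate synthetase, with a TE change of 1.19 ± 0.17 (adjusted p = 7.33e-06). In 51, mRNA fell, footprints were not called and TE rose, as for Nfe2l1, the transcription factor of proteasome genes, with a TE change of 0.82 ± 0.12 (adjusted p = 1.33e-05) and an mRNA change of -0.80. Sun2, a protein of the inner nuclear membrane, rose in both mRNA, by 1.503, and footprints, by 0.83, for a TE change of -0.67 ± 0.14 (adjusted p = 8.097e-04). Of the 408 tested transcripts with lower mRNA, TE was lower for 134 and higher for 79, and of the 659 with higher mRNA, lower for 107 and higher for 63.

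The annotated 5′ transcript leader (TL) was described for transcripts whose TE fell and rose. A leader was annotated for 10496 of the 10535. Its median length was 124 nt among transcripts that fell, 175 nt among those not called and 267 nt among those that rose. No upstream ATG lay in the leader of 60.9%, 47.6% and 39.5% of them. With transcripts split into quintiles by leader length, the share with lower TE went from 26.2% in the shortest quintile (2 to 81 nt) through 23.2, 16.7 and 12.3% to 10.2% in the longest (341 to 4613 nt). The share with higher TE went the opposite way, from 4.03% through 5.33, 10.1 and 15.1% to 18.7%. Without the ribosomal protein and other TOP lists the ends of the range were 25.1 and 9.81% for lower TE and 4.09 and 18.8% for higher TE. These are descriptions over transcripts, which share libraries, and no test was made.

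The composition of the coding sequence was described in the same way. Its median GC content was 55.4% among transcripts that fell, 52.5% among those not called and 49.0% among those that rose. From the lowest to the highest quintile of coding GC the share with lower TE went from 6.33 to 25.7% and the share with higher TE from 19.2 to 4.34%. The median footprints per library over the same quintiles went from 133 to 44, and their part in the trend was not tested. Median lengths of the coding sequence were 1326, 1386 and 1617 nt for lower, not called and higher TE, and those of the 3′ UTR 729, 1090 and 1128 nt. Whether the leader, the coding sequence and the 3′ UTR vary together was not examined, and these features were not separated.

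**Figure D4:**
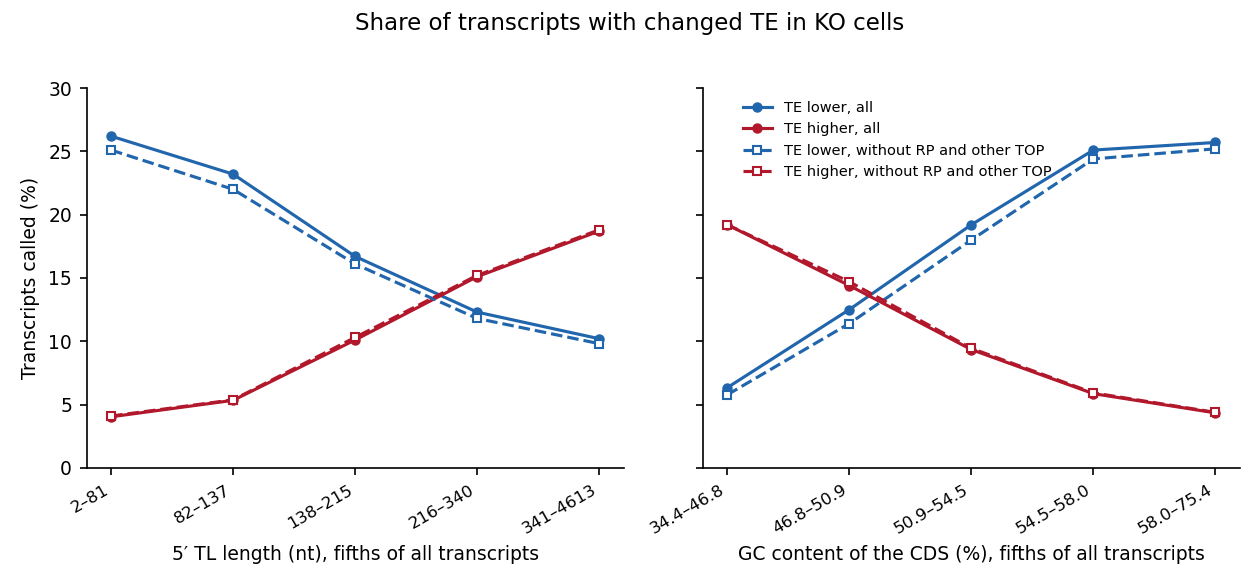
Percent of transcripts called lower or higher in TE on Torin1 in KO cells (vertical) by quintiles of annotated 5′ TL length (left) and of coding sequence GC content (right). Solid lines are all transcripts and dashed lines those outside the ribosomal protein and other TOP lists, and the lines cross in both panels, at long leaders and at low GC.

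A TOP-type start, defined as C at the first annotated base followed by at least 4 bases that are each C or T, was present in 242 of the 10496 transcripts (2.31%). It was present in 11 of the 102 members of the ribosomal protein and other TOP lists (10.8%), and their median TE change was -2.18, against -1.91 for the members without it. Of the 231 transcripts with such a start outside the lists, 22.1% fell and 5.19% rose, beside 17.8% and 10.6% of all transcripts tested. Only the plus sense of the transcript was searched, at its first base.

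The same Torin1 comparison in ctrl cells used no library of the KO comparison. There 488 of 10432 transcripts were called (4.68%), 448 lower (4.29%) and 40 higher (0.383%). The ctrl libraries gave less precision: vehicle Ribo-seq replicate 2 was not analysed here, vehicle replicate 3 held 669392 counts, and the median SE of a TE change was 0.29, against 0.20 in KO cells. Without vehicle Ribo-seq replicate 1 the count was 316, and without vehicle RNA-seq replicate 2 it was 820. Of 10337 transcripts tested in both, 1857 fell in KO cells and 448 in ctrl cells, and 434 fell in both, which is 23.4% of the former and 96.9% of the latter. Increases numbered 1113 and 39, with 33 in common (2.97% and 84.6%). No transcript was called in opposite directions.

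Transcripts called in KO cells mostly moved the same way in ctrl cells, 94.1% of those that fell and 92.9% of those that rose, but their median changes in ctrl cells were smaller, -0.54 against -0.90 and 0.36 against 0.63. The transcripts were chosen by their KO values, so the medians are not a like-for-like comparison. Across the 10337 transcripts, which share libraries within each cell line, the 2 responses had a Pearson r of 0.685 and a Spearman rho of 0.629. In ctrl cells the median was -1.72 for ribosomal proteins with 77 of 79 called lower, -1.47 for other TOP mRNAs with 18 of 23, and 0.34 for mitosis transcripts.

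The difference between the KO and ctrl responses, tested in 1 model over both, was called for 0 of 10443 transcripts by edgeR and 0 by limma-voom. In edgeR 599 had an unadjusted p under 0.05, and the smallest adjusted p was 0.183. In limma-voom 407 had an unadjusted p under 0.05. A share of about 0.05 would lie there without any difference. DESeq2 called 16 of 7605. The median SE of the difference was 0.35. Differences far larger than their SE were not called by edgeR, as the values below show, so the lack of calls does not show equal responses. The smallest p belonged to Sh3bp5l, whose TE change was 1.498 in KO and -0.23 in ctrl cells, a difference of 1.75 ± 0.35 (adjusted p = 0.183). Nomo1, an endoplasmic reticulum membrane protein, fell in both, with changes of -2.57 and -1.48, a difference of -1.06 ± 0.22 (adjusted p = 0.183). For Slc7a5 the values were -2.01 and -0.99, a difference of -0.99 ± 0.22 (adjusted p = 0.183), and for the matrix protein Fbln2 -2.56 and -1.41, a difference of -1.12 ± 0.25 (adjusted p = 0.183). The gene model Gm42878 followed with -2.01 ± 0.45 (adjusted p = 0.183). None of these 5 passed the threshold in the edgeR test, and the first 4 passed in DESeq2.

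**Figure D5:**
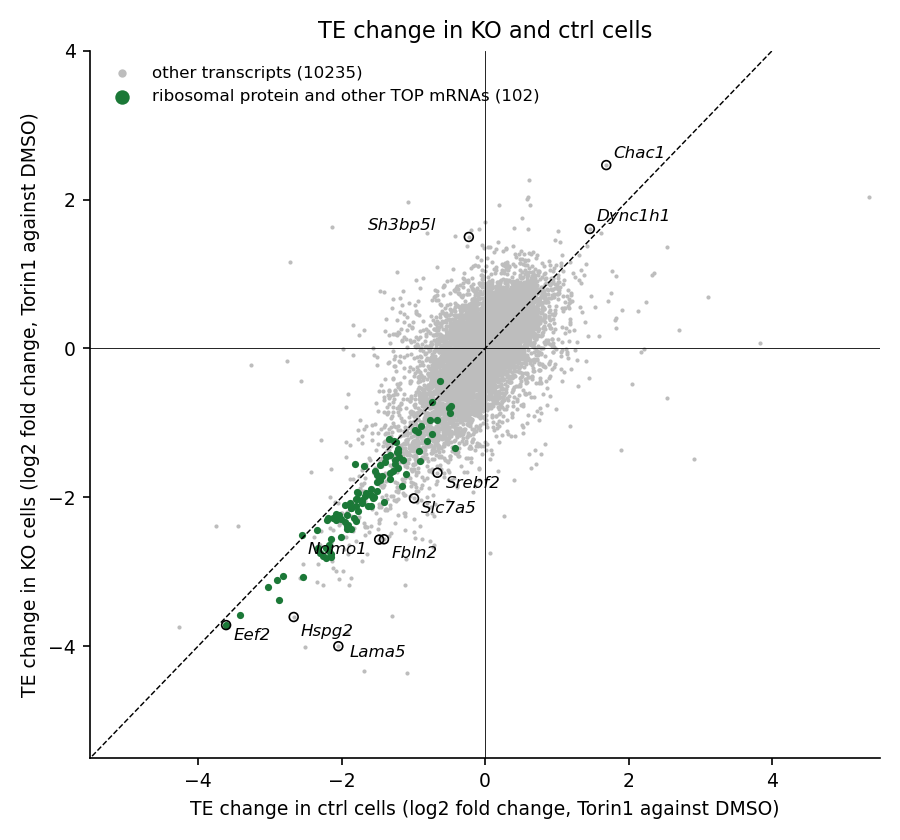
TE change on Torin1 in KO cells (vertical) against that in ctrl cells (horizontal), both log2 Torin1 over DMSO, for the 10337 transcripts tested in both, with the ribosomal protein and other TOP transcripts marked; 2 points lie outside the axes. The TOP transcripts lie along the lower end of the diagonal, with a Pearson r of 0.685 over all points.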

How the data were processed

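RNA-seq and Ribo-seq libraries of KO cells, 3 per condition, were analysed. The authors deposited tables of raw counts per coding sequence of transcripts that the study's methods call canonical, with 11 gene symbols holding 2 tested transcripts. Per the study's methods, footprints were trimmed with cutadapt and size-selected, reads of both assays were mapped to mm10 with HISAT2 and then to transcripts with Bowtie2, reads on rRNA, tRNA and pseudogenes were removed, and P-sites were counted for Ribo-seq. Tool versions are not given in the sources used here. Of the 10 tables, 4 were used. Their columns of fold changes, p-values and normalised values, and the RiboDiff TE tables, were made by the authors for their own comparisons and were not used. No per-sample column was left out for want of a sample (0 columns). The ctrl vehicle Ribo-seq replicate 2 was not analysed here.

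Transcripts were kept with CPM above 1 in all 3 libraries of at least 1 condition in both assays, which left 10535 of the 11039 present in both tables. The TE change was the interaction of assay and treatment in a quasi-likelihood fit (edgeR 4.0.16, R 4.3.3) over the 12 libraries, with TMM factors computed within each assay and Benjamini-Hochberg adjustment over all transcripts at 0.05. The study's tool RiboDiff was not run. Footprints and mRNA were tested alone in the same way, the ctrl cells in a fit of their own, and the difference of the responses in 1 fit over all 23 libraries. TMM factors of the Ribo-seq libraries were 0.90 to 0.92 under DMSO and 1.09 to 1.11 under Torin1, and those of the RNA-seq libraries 0.97 to 1.01. limma 3.58.1 (voom), DESeq2 1.42.0, other scalings and filters, a replicate block and leaving out libraries were the alternatives. The fits were tested on simulated data. Leader, coding and UTR lengths, GC and start sequences came from the GENCODE M21 annotation (GRCm38), in which 10498 of the 10535 transcripts were matched by identifier and 10496 had a 5′ leader.

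Per the labels, each replicate is a separate passage of the cells. They do not say whether samples with the same number share a passage. The check on the data gave every same-numbered pair over 0.1 for RNA-seq but not for Ribo-seq. Deviations from the group means correlated at 0.19 to 0.26 between same-numbered RNA-seq libraries (other pairs -0.17 to -0.051) and at -0.015 to 0.11 between same-numbered Ribo-seq libraries (other pairs -0.11 to 0.047).

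The genes named were fixed genes of the eIF4E, TOP and ATF4 systems, the 10 largest called increases and decreases with a mean of at least 30 footprints in the higher condition, more than 3 counts in every library and no overlap between conditions, up to 3 called members per direction and the extremes of each of 21 lists, up to 5 of each class of footprint and mRNA change, and up to 5 with the smallest p for the difference between KO and ctrl cells. Some items that the rule names are not reported here. The transcripts whose start is shown were chosen after their values were seen. The members and lists were chosen with earlier results of these data known. Intervals and SEs cover these libraries only, and counts without molecular identifiers are not independent molecules.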

Additional observations from a re-analysis of the deposited data

How the results depend on the processing

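The count of 2990 TE calls in KO cells was 2601 with limma-voom, 2712 with 1 weight per assay, 3119 with DESeq2, 3033 with upper-quartile scaling, 2962 without a filter, 2974 with a minimum of 20 counts and 3012 with scaling factors computed without the TOP lists, an alternative chosen after the data were seen. With library totals alone it was 3892, with 1192 lower and 2700 higher, which is 30.6% and 69.4% in place of 62.6% and 37.4%, because the median of all transcripts moved by 0.25. With the replicate number as a block it was 3111 (block shared by the assays) and 3429 (block within each assay), and the mRNA calls rose from 1097 to 1797. Leaving out libraries gave 636 to 1445 transcripts with higher TE and 438 to 1465 mRNA calls in KO cells, and 316 to 820 TE calls in ctrl cells. The difference between KO and ctrl responses had 16 calls in DESeq2 and 0 in every other setting run. Of 102 called transcripts among the genes named, 90 kept the call in all 28 settings, 12 lost it in at least 1 and 0 reversed. Signs changed only for transcripts that were not called. Asns, at -0.12, was 0.12 with library totals alone and -0.21 to 0.040 with libraries left out. Eif4e3, at 0.10, was -0.0135 with limma-voom, -0.01337 with 1 weight per assay and -0.47 to 0.48 with libraries left out. Small list counts moved by over 1.5 times with single libraries left out: increases of aminoacyl-tRNA synthetases (3, then 1 to 5), cholesterol synthesis (4, then 1 or 2), eIF4F (4, then 2), glycolysis (2, then 1), the lysosome (3, then 1), mitochondrial ribosomal proteins (0, then 1 or 2) and the respiratory chain (2, then 4), and decreases of the mTOR pathway (4, then 2) and Zfp genes (3, then 1). Causes were not tested. The depth of 1615954 to 5288846 footprint counts per KO library limits the calls on transcripts with few footprints, such as Eif4e3.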

Other observations

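Of 170 tested transcripts with a numbered gene-model or pseudogene symbol, 38 were lower in TE on Torin1 (22.4%) and 11 higher (6.47%), beside 17.8% and 10.6% of all transcripts tested. Reads of such transcripts may come from a near-identical parent gene, and their part in these counts was not tested.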
